A study of Rattus norvegicus with 8 samples.

Results

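The genes described here copy DNA and drive the mitotic cell cycle: the subunits of the replicative polymerases and primase, the clamp, its loader, the helicase and its loading factors, the ligase and flap nuclease, the enzymes of deoxynucleotide supply, and the cyclins with Cdk1. A list of 40 such genes was taken, and its members were the probes whose RefSeq accession on the array maps to the listed rat symbols. Probes were matched for 36 of the 40, with 43 probes in all; no accession on the array matched Rpa1, Mcm5, Mki67 or Top2a, which have no value here. Pola2 did not pass the filter on dim probes, so 35 members were measured among 22872 features. The question was whether the fall of Prim2 is shared by other replication genes.

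The samples were liver from male rats, on 8 single-colour Agilent expression arrays with 1 array for each sample. The 5 high-fat samples, which the labels call NAFLD (non-alcoholic fatty liver disease), came from rats fed a high-fat diet for 14 weeks, and the 3 control samples from rats fed standard chow. All were 22 weeks old; no strain is given, and whether samples are from separate animals is not stated, so p-values measure only the spread between these samples, which may be technical. Values are log2 signals relative to the 75th percentile of the same array, and a probe was well above background where the scanner software marked it so. The 8 hepatocyte markers (among them Alb and Apoa1) were above background on all 8 arrays. The high-fat arrays were brighter, with 79.1% to 92.8% of probes above background and a 75th percentile of 725 to 1045 intensity units, against 66.9% to 71.8% and 278 to 559 on chow. The arrays were scanned in 3 runs: high-fat replicates 2, 3 and 5 in run 1, all chow arrays in run 2, and high-fat replicates 1 and 4 in run 3, on another day. No run held both diets, so scan run and diet cannot be told apart.

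DNA polymerases cannot start a strand, and the polymerase alpha-primase complex solves this by laying down a short RNA-DNA primer. Prim1 is its catalytic primase subunit, Prim2 the large subunit that holds the growing primer through an iron-sulphur domain, Pola1 the polymerase subunit and Pola2 its accessory subunit. Most genes of this machinery are induced together by E2F factors as a cell enters S phase; adult liver is largely quiescent, and hepatocytes re-enter the cycle after injury or loss of tissue.

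Prim2 was the only measured member that passed the test at an adjusted p under 0.05. Its log2 signal was −1.30, −1.34, −1.11, −1.25 and −1.39 on the high-fat arrays (replicates 1 to 5) and −0.16, −0.01 and 0.06 on the chow arrays (replicates 1 to 3). All high-fat arrays lay below all chow arrays, with a small spread within each diet. The means were −1.28 ± 0.11 (SD, n = 5) and −0.04 ± 0.11 (SD, n = 3), so Prim2 fell by 1.24 ± 0.13 (SE) on the log2 scale, 2.36-fold, with an adjusted p of 0.00225 by limma. This was the smallest adjusted p among the 112 features called lower, but Prim2 ranked 100 by p among all 22872 features. A fall of that size or larger was seen in 84 features, Prim2 counted. In bulk liver, fewer cells of a type and less RNA per cell cannot be told apart. The value comes from 1 probe with 1 spot on each array, above background on all 8.

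The fall was as large in either group of high-fat arrays scanned together: −1.24 ± 0.16 (SE, adjusted p = 0.0196) for the 2 arrays of run 3 against chow and −1.24 ± 0.15 (SE, adjusted p = 0.00498) for the 3 arrays of run 1. With scan run as a random block, a fit that widens the errors for arrays scanned together, the difference was the same, −1.24 ± 0.22 (SE), but the adjusted p was 0.0673 and the call was lost.

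Both the size of the Prim2 difference and whether there is one also rest on scaling. Before scaling, its processed signal was 294, 358, 486, 308 and 333 intensity units on the high-fat arrays and 269, 553 and 291 on chow. These values overlap, and on the log2 scale the diets differed by −0.01 in this gene. The 75th percentile of the high-fat arrays was 1.24 log2 units higher, and the median feature was 1.23 units higher before scaling. Prim2 was therefore among the 0.372% of features that were not brighter on the high-fat arrays. The other 34 measured members were all brighter before scaling, by 0.40 (Cdt1) to 2.28 log2 units (Ccne1). Scaling also drew the Prim2 chow arrays together, from an SD of 0.57 to 0.11.

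**Figure D1:**
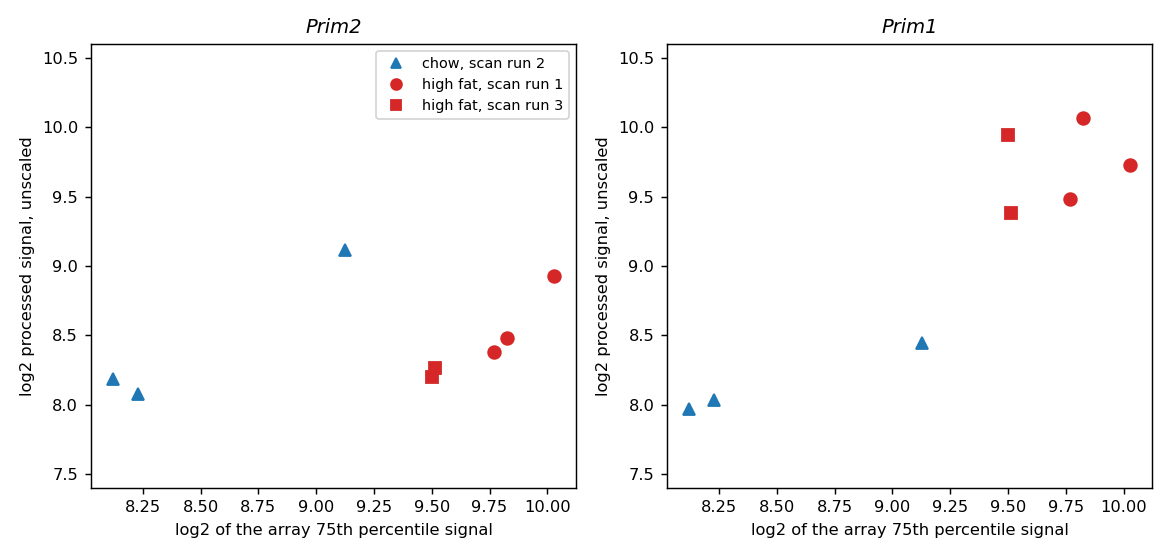
Log2 processed signal before scaling (y axis) against the log2 75th percentile of the same array (x axis) for Prim2 and Prim1, 1 point for each of 8 arrays, by diet and scan run. Prim2 has like unscaled signals on both diets although the high-fat arrays are brighter, while every Prim1 signal is higher on high-fat arrays (668 to 1072 units) than on chow (251 to 348 units).

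The other subunits of the complex did not pass the test. Prim1 was at 0.44, 0.24, −0.30, −0.13 and −0.29 on high-fat diet and −0.19, −0.68 and −0.15 on chow. The diets overlapped, the difference was 0.33 ± 0.23 (SE, adjusted p = 0.46), opposite in sign to that of Prim2, and its 95% interval (−0.19 to 0.86) does not reach the fall of Prim2. Prim1 has 10 spots on each array, whose median SD on an array was 0.07, so spot noise was small beside the spread between arrays (SD 0.33 on high-fat diet).

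Pola1, a dim probe, was at −4.90, −3.71, −3.25, −3.65 and −3.97 on high-fat diet and −4.26, −4.02 and −3.83 on chow. High-fat replicate 1 was the lowest and replicate 3 the highest of the 8, with chow between them. The difference was 0.14 ± 0.34 (SE, adjusted p = 0.869); it was −0.02 without high-fat replicate 3. With normexp background correction, which moved the median of all features from −0.01 to −0.29, it was −0.37, and 0.17 with normexp and quantile normalization. The Pola2 probe was above background on 1 high-fat array and 0 chow arrays and gives no fold.

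The promoters of the 4 subunits are shown because, of the 3 measured, Prim2 alone passed the test. Each is given from 220 bases before the RefSeq start to 10 bases after it (GRCr8 assembly, in the direction of the gene), in lower case, with capitals for every E2F core. The core was searched on both strands in 4 spellings. One spelling was TTCCCGC, which is the form found at the start of Prim1. Another spelling was TTGGCGC, which Pola1 holds just before its start. The other spellings searched were TTCGCGC, which none of the 4 windows holds, and likewise the form written TTGCCGC. Prim2 is at chr9:43400445-43400674 (minus strand), Prim1 at chr7:1031242-1031471 (plus strand), Pola1 at chrX:62342346-62342575 (minus strand) and Pola2 at chr1:212680533-212680762 (minus strand).
Prim2: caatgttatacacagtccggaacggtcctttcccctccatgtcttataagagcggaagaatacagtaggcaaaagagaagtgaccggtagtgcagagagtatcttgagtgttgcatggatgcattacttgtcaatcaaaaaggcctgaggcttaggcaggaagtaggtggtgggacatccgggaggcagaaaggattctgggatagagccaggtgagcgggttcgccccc
Prim1: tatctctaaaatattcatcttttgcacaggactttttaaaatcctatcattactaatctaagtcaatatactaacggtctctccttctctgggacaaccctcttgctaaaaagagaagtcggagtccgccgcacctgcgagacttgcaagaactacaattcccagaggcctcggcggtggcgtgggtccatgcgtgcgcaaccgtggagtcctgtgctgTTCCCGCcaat
Pola1: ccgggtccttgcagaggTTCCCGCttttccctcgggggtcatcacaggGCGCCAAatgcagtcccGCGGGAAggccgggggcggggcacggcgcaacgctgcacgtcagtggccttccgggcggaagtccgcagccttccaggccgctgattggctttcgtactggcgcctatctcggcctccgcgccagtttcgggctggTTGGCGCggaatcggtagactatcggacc
Pola2: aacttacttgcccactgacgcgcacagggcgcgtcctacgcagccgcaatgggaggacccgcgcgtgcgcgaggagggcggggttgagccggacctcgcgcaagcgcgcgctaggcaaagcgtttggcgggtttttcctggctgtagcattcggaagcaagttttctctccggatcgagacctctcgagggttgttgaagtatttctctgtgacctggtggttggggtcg
In the full 300 bases (250 before the start), Pola1 held 4 E2F cores and Prim1 held 1, while Prim2 and Pola2 held 0. Of the 33 listed genes with a promoter in the table, 22 held an E2F core (66.7%), against 9.52% of all 33469 promoters. The CCAAT box (CCAAT) was in 21 of the 33 (63.6%, against 37.5%) and the GC box (GGGCGG) in 24 (72.7%, against 33.1%). Prim2 held neither box. Nor did Rfc5, which also held no E2F core and differed by 0.14 between diets (adjusted p = 0.713 by limma). The GC content of Prim2 was 52.3%, against a median of 60.0% over these genes and 51.7% over all promoters. These are matches of letters in a short window and say nothing of what binds there.

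No other measured member passed with Prim2. Of 35 measured members, 1 passed lower (background: 0.49% of all features) and 0 passed higher (3.07%), or 1 in either direction (3.56%). At an unadjusted p under 0.05 there were 2, Prim2 and Ccne1, where 20.2% of all features reached that level. The diets did not overlap in 1 member that was lower, Prim2 (9.17% of features), and in 1 that was higher, Ccne1 (7.93%), so 2 of 35 stood apart where 17.1% of all features did. The last 2 of these shares are under the background, and the lower call is Prim2 itself, whose fall was known when the list was chosen. The median difference over members was 0.14 (0.14 also without Prim2), against −0.01 over all features. Differences were positive in 23 members and negative in 12, and in all features positive in 11325 and negative in 11547. Of the positive members, Pole2, Mcm6 and Orc1 were above background on no chow array and passed the filter through the high-fat arrays alone. Over the 26 members above background on all 8 arrays the median was 0.08, against −0.07 over all features so filtered. Of the 34 members other than Prim2, 33 had a 95% interval (from limma, unadjusted) that excludes a fall as large as that of Prim2. The exception was Cdt1. A 2-fold fall was excluded in 31 and a 2-fold rise in 29. Both counts for a fall include Pole2, Mcm6 and Orc1, which could not have shown one, being above background on no chow array. With scan run as a random block the first count was 30 of 34, and with normexp 27 of 34. Differences smaller than these bounds were not resolved: the SE of a member was 0.23 at the median and up to 0.68.

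**Figure D2:**
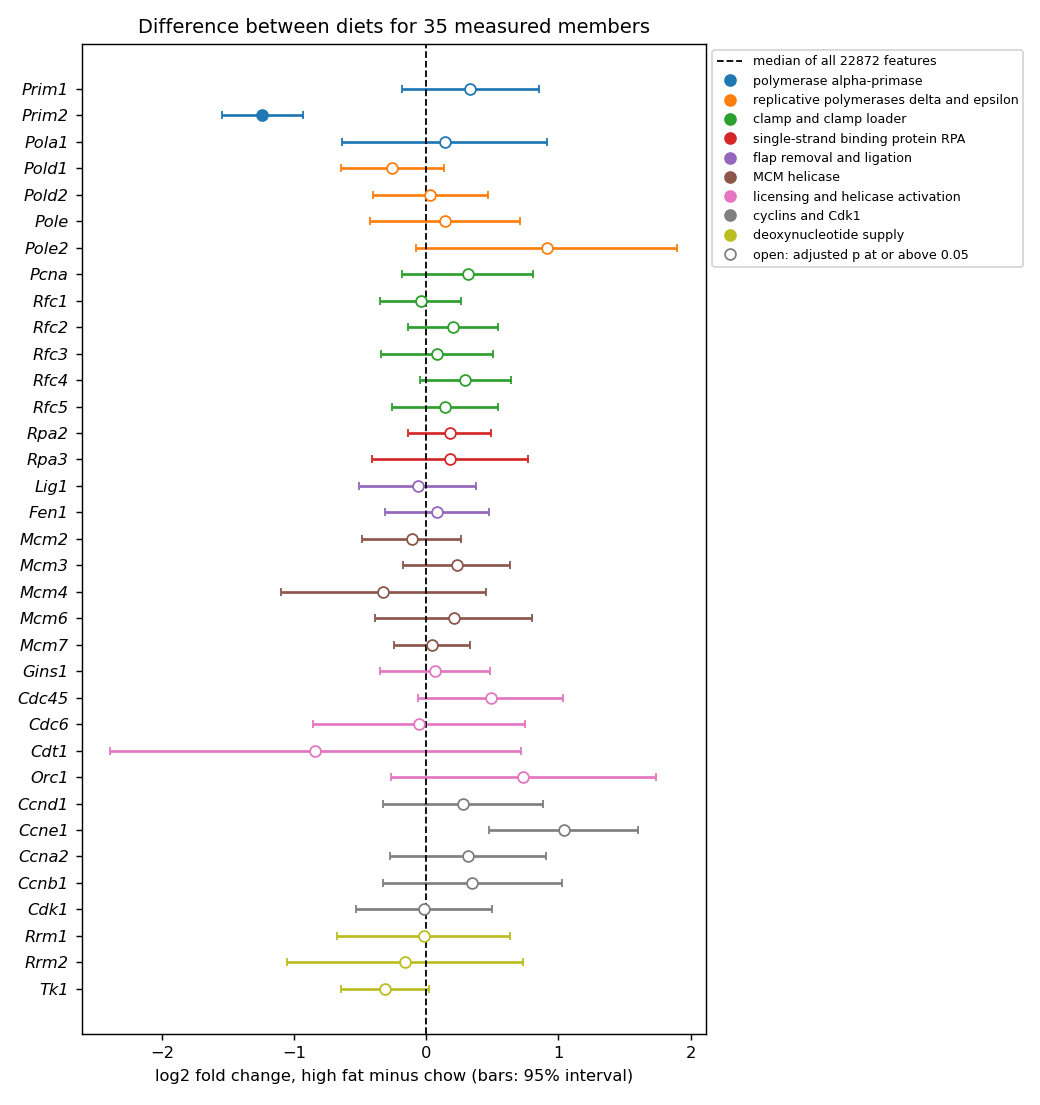
Log2 difference between diets (x axis, high fat minus chow) for the 35 measured members, coloured by role, with 95% intervals from limma; the filled point passed at an adjusted p under 0.05 and the dashed line is the median of all 22872 features. Prim2 alone stands to the left at −1.24, and all other intervals but that of Ccne1 include 0.

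**Figure D3:**
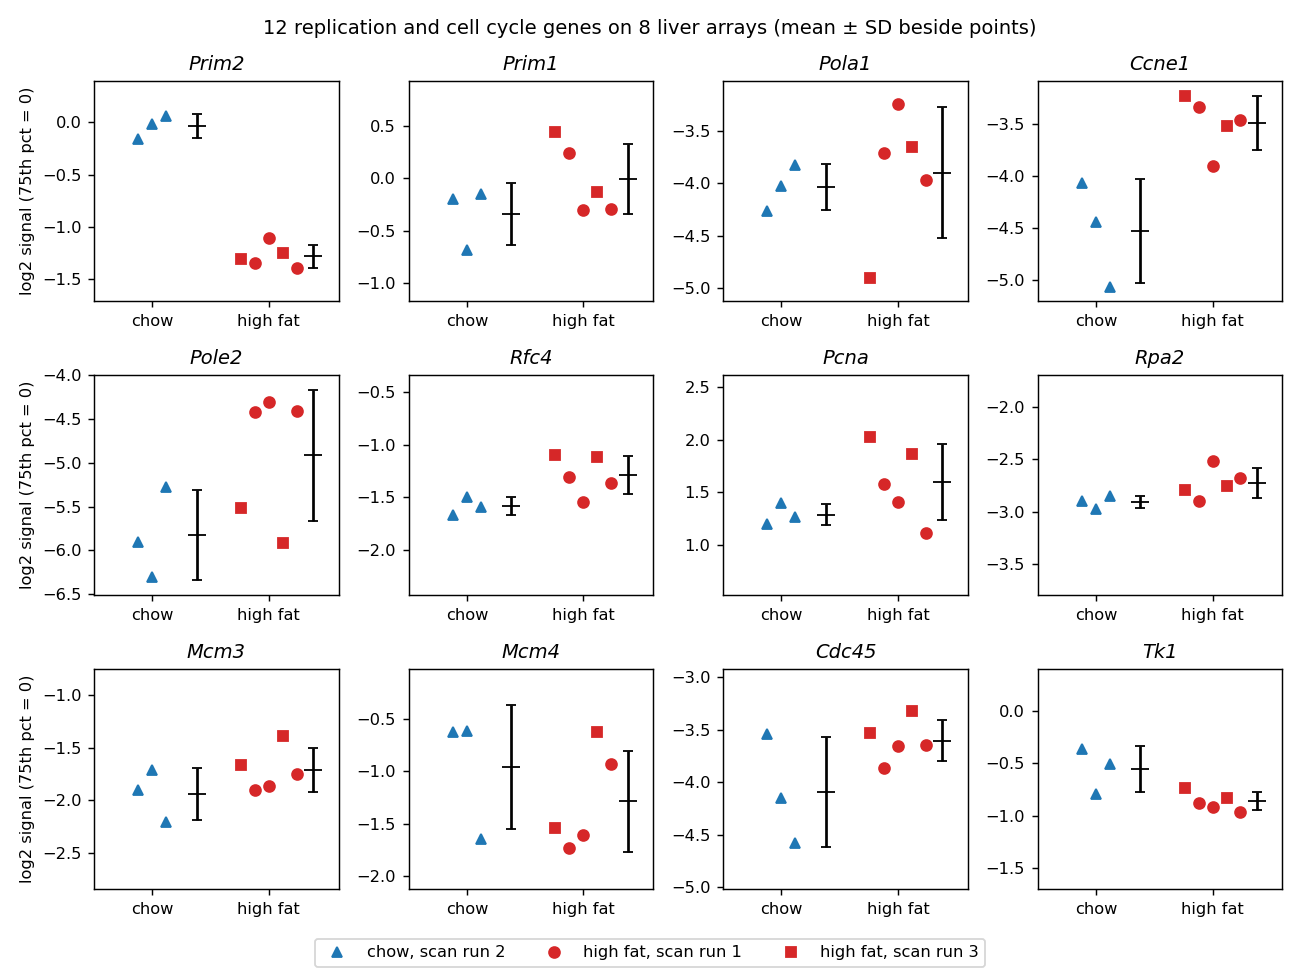
Log2 signal relative to the 75th percentile of the array (y axis, each panel on its own range) for 12 members on the 3 chow and 5 high-fat arrays, with mean ± SD beside the points and markers by scan run. Diets separate in Prim2 (lower on high fat) and Ccne1 (higher on high fat) and overlap in the other 10 panels.

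Polymerases delta and epsilon extend the primers on the lagging and leading strand. Pold1, the catalytic subunit of delta, differed by −0.26 (adjusted p = 0.452), its partner Pold2 by 0.03 and Pole, the catalytic subunit of epsilon, by 0.14. Pole2, the second subunit of epsilon, had the largest difference of the group: −5.52, −4.42, −4.31, −5.92 and −4.40 on high-fat diet and −5.90, −6.30 and −5.27 on chow. High-fat replicates 2, 3 and 5, all of scan run 1, were the high ones, and replicates 1 and 4 of run 3 lay within the chow range. The difference was 0.91 ± 0.43 (SE, adjusted p = 0.282 by limma). For the high-fat arrays of run 1 against chow it was 1.45 (adjusted p = 0.0168), and for those of run 3 it was 0.11 (adjusted p = 0.855). Pole2 was above background on no chow array and no lower bound on a fold above 1 could be set.

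The sliding clamp Pcna ties polymerases to DNA, and the Rfc complex opens and loads it. Pcna was at 2.02, 1.58, 1.41, 1.86 and 1.11 on high-fat diet and 1.19, 1.40 and 1.27 on chow. High-fat replicates 1 and 4 were the highest and replicate 5 the lowest of all 8 arrays, so the diets overlapped (difference 0.31 ± 0.22 SE, adjusted p = 0.47). Rfc4, a small loader subunit, was at −1.10, −1.31, −1.54, −1.12 and −1.36 on high-fat diet and −1.66, −1.49 and −1.59 on chow. High-fat replicate 3 lay within the chow values and the other 4 above them (0.30 ± 0.15 SE, adjusted p = 0.316). Rfc2, Rfc3 and Rfc5 differed by 0.20, 0.08 and 0.14, and Rfc1, the large subunit, by −0.04, with adjusted p from 0.496 to 0.9.

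RPA coats single-stranded DNA behind the helicase; Rpa2 and Rpa3 are its smaller subunits. Rpa2 was at −2.79, −2.89, −2.51, −2.76 and −2.68 on high-fat diet and −2.89, −2.97 and −2.85 on chow. All but high-fat replicate 2 lay above chow, by little (0.18 ± 0.14 SE, adjusted p = 0.521). With normexp it was −0.20, above that setting's median of all features, and 0.10 with normexp and quantile normalization. Rpa3 was at 3.16, 2.48, 2.20, 3.12 and 2.34 on high-fat diet and 2.63, 2.35 and 2.45 on chow. The 2 high-fat arrays of run 3 were the highest, while those of run 1 lay among the chow arrays or under them. The difference was 0.18 ± 0.26 (SE, adjusted p = 0.761 by limma), and −0.14 for the high-fat arrays of run 1 against chow.

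Okazaki fragments are trimmed by the flap nuclease Fen1 and joined by the ligase Lig1. Fen1 was at −0.51, −0.61, −1.03, −0.39 and −0.51 on high-fat diet and −0.59, −0.79 and −0.69 on chow. High-fat replicate 3 was the lowest and replicate 4 the highest, with chow between them (0.08 ± 0.17 SE, adjusted p = 0.848 by limma). The difference was −0.02 for the high-fat arrays of run 1 against chow. Lig1 differed by −0.06 (adjusted p = 0.898).

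The MCM ring unwinds the duplex ahead of the fork. Mcm3 was at −1.66, −1.90, −1.86, −1.39 and −1.74 on high-fat diet and −1.90, −1.71 and −2.20 on chow. The diets overlapped (0.23 ± 0.18 SE, adjusted p = 0.524), with high-fat replicate 4 the highest and chow replicate 3 the lowest. Mcm4 was at −1.54, −1.74, −1.61, −0.62 and −0.93 on high-fat diet and −0.62, −0.62 and −1.65 on chow. Both diets held high and low arrays, and the difference was −0.32 ± 0.34 (SE, adjusted p = 0.658). Mcm2, Mcm6 and Mcm7 differed by −0.11, 0.21 and 0.04. Mcm6 was above background on no chow array and has no lower bound above 1. Mcm7 was among the least variable members, with an SD of 0.09 on high-fat diet and 0.07 on chow, and its interval ran from −0.25 to 0.33.

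Before S phase, Orc1, Cdc6 and Cdt1 load the MCM ring at origins, and Cdc45 and the GINS subunit Gins1 then turn it into an active helicase. Cdc45 was at −3.53, −3.86, −3.66, −3.32 and −3.64 on high-fat diet and −3.54, −4.15 and −4.58 on chow. Chow replicate 1 lay among the high-fat arrays and the other two chow arrays below them. The difference was 0.49 ± 0.24 (SE, adjusted p = 0.299) and was −0.51 with normexp, below the −0.29 of all features, and −0.02 with normexp and quantile normalization. Cdt1 was at −7.32, −7.87, −5.66, −5.45 and −6.45 on high-fat diet and −6.28, −6.52 and −4.34 on chow. It was above background on 2 high-fat arrays and 1 chow array, so its −0.84 ± 0.68 (SE, adjusted p = 0.545) is the least certain value of the list. Orc1 differed by 0.74 (adjusted p = 0.393) with no chow array above background and no lower bound above 1, Cdc6 by −0.05 and Gins1 by 0.07.

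Cyclins D1, E1, A2 and B1 (Ccnd1, Ccne1, Ccna2, Ccnb1) act in that order from G1 to mitosis, the later ones with Cdk1. Cyclin E1 commits the cell to S phase. Ccne1 was at −3.23, −3.33, −3.91, −3.52 and −3.46 on high-fat diet and −4.07, −4.45 and −5.07 on chow. All high-fat arrays lay above all chow arrays, with means of −3.49 ± 0.26 (SD, n = 5) and −4.53 ± 0.50 (SD, n = 3). The difference was 1.04 ± 0.25 (SE) with an adjusted p of 0.0626, just over the threshold. Of the chow arrays, 2 of 3 had it above background, as did all 5 high-fat arrays. For the high-fat arrays of runs 3 and 1 against chow the difference was 1.16 (adjusted p = 0.0821 by limma) and 0.96 (adjusted p = 0.0703). With normexp it was −0.09, above the −0.29 of all features. With normexp and quantile normalization it was 0.46 and passed (adjusted p = 0.0392). The later cyclins gave no call: Ccna2 differed by 0.32 (adjusted p = 0.546), Ccnb1 by 0.35 (adjusted p = 0.568), Cdk1 by −0.02 and Ccnd1 by 0.28.

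Ribonucleotide reductase (Rrm1, Rrm2) and thymidine kinase Tk1 supply deoxynucleotides. Tk1 was at −0.73, −0.88, −0.91, −0.83 and −0.96 on high-fat diet and −0.36, −0.79 and −0.51 on chow. High-fat replicate 1 lay above chow replicate 2, the only crossing between the diets (−0.31 ± 0.15 SE, adjusted p = 0.277). Rrm1 differed by −0.02 (adjusted p = 0.982). Rrm2 differed by −0.16 (adjusted p = 0.869), and chow replicate 1, at −0.74, stood well above the other two chow arrays at −2.34 and −2.38.

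Where a member had several probes, they did not always go the same way. The Mcm4 probe used above differed by −0.32; the other, dimmer one was at −4.52, −4.96, −4.64, −3.89 and −4.33 on high-fat diet and −5.63, −5.90 and −6.47 on chow. None of the chow signals of that probe, and all of its high-fat ones, were above background, so it passed the filter through the high-fat arrays alone. Against the lowest signal above background on the chow arrays it was 1.34-fold higher (measured difference 1.53, adjusted p over all probes 0.0223, limma). That level is no strict limit. On chow replicate 1 the lowest signal above background was −5.09, yet Mcm6 at −4.66 was not above background. The 3 probes of Rfc1 differed by −0.04, 0.85 and −0.45, and only the last did not overlap between diets (−0.92 ± 0.13 SD, n = 5, against −0.46 ± 0.10 SD, n = 3; adjusted p over all probes 0.14). The second probes of Mcm3, Ccna2 and Rrm2 differed by −0.01, 0.34 and 0.07, none with an adjusted p under 0.05. Prim2 has no other probe on the array to set beside its 1.

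Differences over all features ran with signal, positive for dim probes and negative for bright ones, and members were read against their own range. With features split into 3 equal bins by mean signal, the members' median was 0.28 for the 10 dim members against 0.19 for all dim features, 0.07 for the 20 of middle signal against 0.02, and 0.18 for the 5 bright members against −0.15. Prim2 was in the middle bin. Which part signal has in the dim members' positive differences was not tested.

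**Figure D4:**
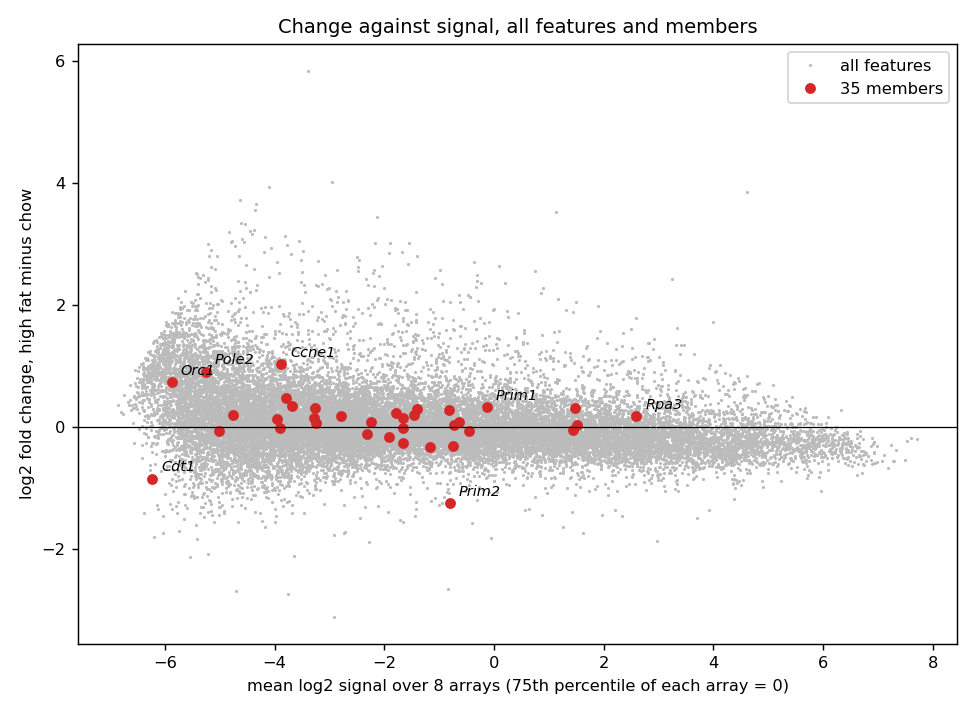
Log2 difference between diets (y axis) against mean log2 signal over the 8 arrays (x axis) for all 22872 features (grey) and the 35 members (red). Prim2, at −1.24, lies clear of the grey cloud's centre at middle signal, while Orc1, Pole2 and Cdt1 are in the dim range, where the cloud is widest.

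Among the high-fat arrays themselves, 20 of 35 members did not overlap between scan runs 3 and 1, and 59.1% of all features did the same. Prim2 was at a mean of −1.27 in run 3 and −1.28 in run 1. By mean, run 3 minus run 1 was −1.34 in Pole2, −1.07 in Orc1 and 0.80 in Rpa3, the largest of the list. Against the chow arrays, all of run 2, 1 member passed with the high-fat arrays of run 3 (Prim2, where 8.66% of features passed). With those of run 1, 2 members passed (Prim2 lower and Pole2 higher, where 12.7% of features passed). Pole2 was above background on no chow array and entered the test through the high-fat arrays alone, so its pass rests on chow values near the floor.

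**Figure D5:**
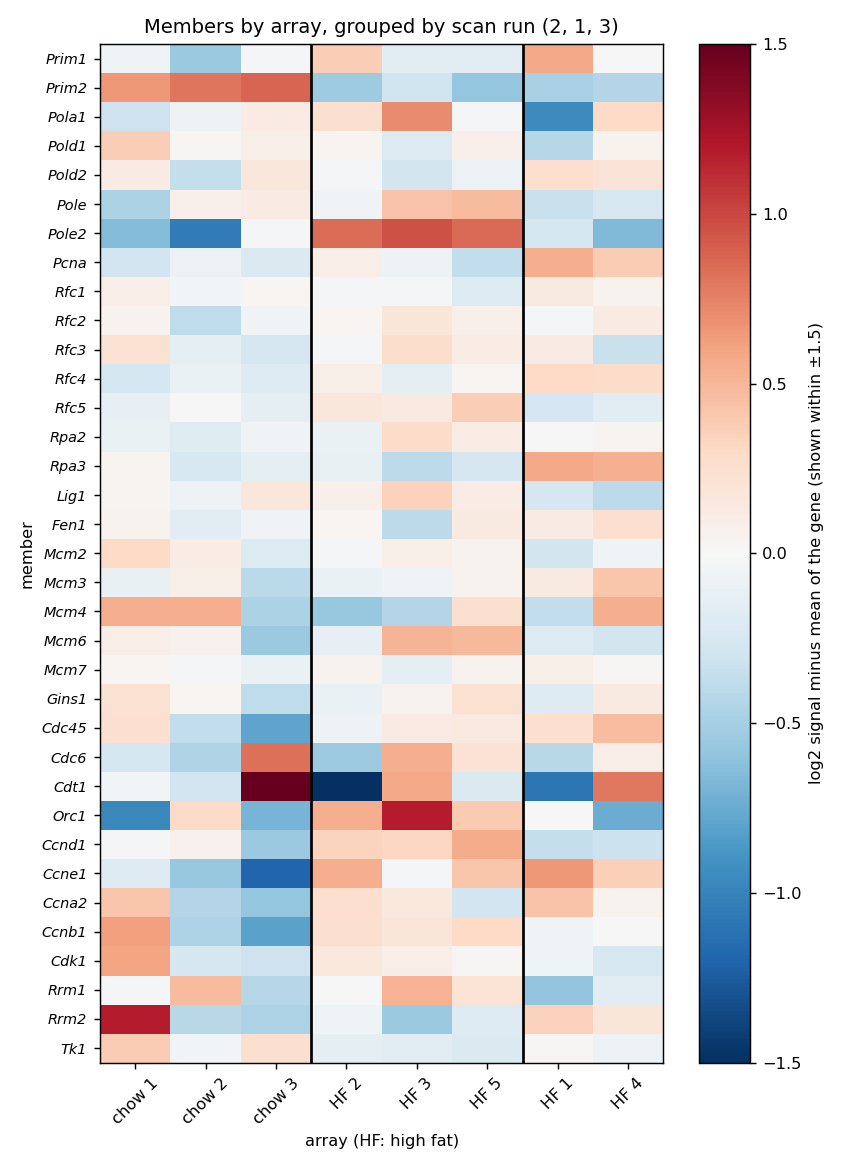
Log2 signal minus the mean of the gene over 8 arrays (colour, shown within ±1.5) for the 35 measured members (rows) on each array (columns, grouped by scan run with black lines). Prim2 is red on all 3 chow arrays and blue on all 5 high-fat arrays; Pole2 is red in run 1 alone, and Rrm2, Cdk1, Ccnb1 and Ccna2 are red on chow replicate 1 but not on the other two chow arrays.

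Other genes of replication and the cycle were read from lists made for this purpose. Of 40 other replication factors (further licensing, fork and nucleotide genes), 29 were measured and 0 passed, with 4 at an unadjusted p under 0.05, a level that 20.2% of all features reached. The smallest p was that of Tyms, the thymidylate synthase, at −0.79, −1.09, −1.01, −1.01 and −1.68 on high-fat diet and −1.81, −1.95 and −1.73 on chow. All high-fat arrays lay above chow, as in 3 of these 29 factors (background 7.93%), by a mean of 0.71 ± 0.21 (SE, adjusted p = 0.106 by limma). Of 30 mitotic genes 22 were measured and 0 passed, with 3 at an unadjusted p under 0.05 (background 20.2%). Plk1, the kinase of mitotic entry, had the smallest p, at −2.78, −2.57, −2.49, −2.76 and −2.72 on high-fat diet against −3.03, −3.23 and −3.08 on chow. It was 1 of 3 among the 22 that were higher without overlap (background 7.93%), with a difference of 0.45 ± 0.14 (SE, adjusted p = 0.118 by limma). With normexp it was −0.06, above the −0.29 of all features, and 0.30 with normexp and quantile normalization (adjusted p = 0.0662).

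Of 23 regulators of cell cycle entry 19 were measured and 0 passed, with 4 at an unadjusted p under 0.05, close to the background of 20.2%. Rbl2, the pocket protein p130 that represses E2F targets in quiescent cells, was at 2.67, 2.60, 2.56, 2.54 and 2.38 on high-fat diet and 3.04, 3.06 and 3.26 on chow. Every high-fat array was lower than every chow array (−0.57 ± 0.13 SE), with an adjusted p of 0.0617 by limma, just over the threshold. In this list 2 of 19 were lower without overlap, against 9.17% of all features. Rbl2 was in the bright bin, where 1478 of 7624 features were lower without overlap. All 17 inhibitors and p53 targets were measured and 1 passed (background 3.56%). Ccng1, cyclin G1, a target of p53, was at 1.87, 1.55, 1.46, 1.38 and 0.98 on high-fat diet and −0.29, 0.19 and −0.09 on chow. It rose 2.85-fold (log2 1.51 ± 0.22 SE, adjusted p = 0.00864), with no overlap. The call on Ccng1 was lost with scan run as a random block (adjusted p = 0.187). Cdkn1a (p21), an inhibitor of cyclin-dependent kinases, and Mdm2, the ubiquitin ligase of p53, were the other 2 of this list higher without overlap (3 of 17 in all, background 7.93%), chosen here after their values were seen; they differed by 0.78 (adjusted p = 0.118) and 0.51 (adjusted p = 0.258). The medians of the 4 lists were 0.14, 0.24, −0.03 and 0.21 in the order given here, against −0.01 over all features.

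Markers of the cell types that liver could hold gave 0 calls in every list, where 3.56% of all features were called. At an unadjusted p under 0.05 (limma, 20.2% of all features) there were 4 of 6 stellate cell and fibroblast markers, in both directions. Col3a1 (−0.76), Des (−0.47) and Pdgfrb (−0.64) were lower and Lrat (0.44) was higher. At that level there were also 2 of 8 hepatocyte, 2 of 7 macrophage and Kupffer cell and 1 of 9 leukocyte markers, and 0 in each other list. The 2 macrophage markers, Clec4f (−0.59) and C1qa (−0.45), were lower, while 4 of the 7 had a positive difference. The summed level of 9 measured leukocyte and lymphocyte markers was 1.01 to 1.62 on high-fat diet and 1.18 to 1.81 on chow (log2), that of 7 macrophage and Kupffer cell markers 4.79 to 5.24 and 5.24 to 5.60, and that of 6 stellate cell and fibroblast markers 3.70 to 4.25 and 4.12 to 5.00. All 8 hepatocyte markers had a negative difference, with a median of −0.37. All 8 were in the bright bin by signal, where 5174 of 7624 features were negative and the median was −0.15. The summed level of the hepatocyte markers was 9.10 to 9.33 on high-fat diet and 9.16 to 9.85 on chow. The 3 measured markers of sinusoidal endothelium summed to 4.83 to 4.99 on high-fat diet and 5.00 to 5.05 on chow, the only list whose sums did not overlap between diets. Each of the 3 taken alone did overlap. Kdr differed by −0.11 and Lyve1 by −0.14, while Pecam1 differed by 0.19. All 3 were in the bright bin, where 1478 of 7624 features were lower without overlap. The sums of 4 cholangiocyte markers were −1.24 to −0.39 and −0.84 to −0.22, and those of 3 erythroid markers 6.61 to 7.25 and 6.73 to 7.37. The part of these cell types in the Prim2 difference was not tested.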

How the data were processed

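The arrays were read by Agilent Feature Extraction 11.0.1.1, per the submitters' processing notes. Per the file headers, the deposited processed signal is an intensity with background subtracted within the array and no scaling between arrays; other deposited flags mark spots as above background, saturated or outliers (331 to 550 outlier spots an array were left out; 0 were saturated). The deposited value table holds log2 values whose making is not given in the sources used here; it correlated with the scanner values at 0.995 to 0.999 and was used as an alternative. Log2 signals were averaged over the spots of a probe and set relative to the array's 75th percentile. Probes above background on at least 3 of 8 arrays were kept, whatever the diet. A gene was represented by its probe of highest mean signal. Names came from array accessions matched to RefSeq genes (GRCr8), 18005 of 30367 probes; promoters also came from RefSeq.

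Diets were compared by two-sided tests in limma 3.58.1 (R 4.3.3; lmFit, eBayes). Adjusted p-values are Benjamini-Hochberg values across every feature tested, called at 0.05. The code was tested on simulated data with 200 of 22723 features changed and noise independent between arrays. Changes of 1.25 log2 units were called in 46% and those of 2 units in 74%, with 7 false calls. A lower bound on a fold sets each chow array at the lowest signal above background, or the probe's own signal where higher. It is approximate, since some probes over that level were not above background. The number of arrays limits the precision; 0 pairs of arrays were identical. Groups and replicate numbers came from the sample titles, and scan runs from the scan times in the headers.

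The members and lists were chosen with earlier results of these data known. Named with values on every array were the primase complex, members that passed, in each role group the member with the smallest adjusted p and that with the largest difference, and in each other list the gene with the smallest p and those that passed; other exceptions are marked. Alternatives changed the scaling, background, filter, probe choice, weights, scan run, replicate block and samples. The normexp alternative used the median spot signal and median local background with an offset of 50, where the mean signal had been planned.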

Additional observations from a re-analysis of the deposited data

Results flagged for a closer look

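Mcm7, a subunit of the MCM helicase, had 1 high-fat array far from the others. Replicate 3 was at 1.38 and the other 4 arrays at 1.55 to 1.61, so the gap to its nearest neighbour was 0.747 of the whole range of the group, above Dixon's 95% critical value for 5 samples. Chance alone flags about 1 in 20 groups, and 1 of 39 genes tested in this way stood out. The cause was not tested. Between diets Mcm7 differed by 0.04 ± 0.13 (SE, adjusted p = 0.891 by limma).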

How the results depend on the processing

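Over 21 alternatives, Prim2 was lower on high-fat diet in all, by 1.03 to 1.32 on the log2 scale, and passed in all but the random block of scan run (−1.24, adjusted p = 0.0673) and the replicate block (−1.21, adjusted p = 0.0917). Leaving out each array in turn gave −1.30 to −1.19, and 1 member passing each time. The labels do not say whether a replicate number pairs samples across diets, and so few numbers cannot decide it. Same-numbered samples correlated at 0.0828, −0.00442 and 0.0591, and replicate 2 did not correlate best with its own number, while 1 and 3 did. Under the replicate block 4 features and 0 members passed. Members passing numbered 4 with normexp and quantile normalization (Prim2, Ccne1, Pole2, Tk1), 5 with array weights (these and Orc1), 0 with the random block and 2 with run 1 alone. Of the members named here, Pole2 and Orc1 were above background on no chow array and entered the test through the high-fat arrays alone. Here a run alone means the high-fat arrays of that run against all chow arrays, which are of run 2. The members' median was 0.055 with quantile normalization, 0.064 with median centring, 0.058 with the deposited table, 0.065 with run 3 alone, −0.21 with normexp (all features −0.29) and 0.031 with normexp and quantile normalization; leaving out 1 array gave 0.062 to 0.203. Features passing, 815 in the report (703 higher, 112 lower), numbered 148 with normexp, 2114 with normexp and quantile normalization (1038 higher, 1076 lower), 535 above background on all 8 arrays, 3763 with array weights (2191 and 1572), 84 with the random block (84 and 0), 1980 with run 3 alone (998 and 982) and 2905 with run 1 alone. Leaving out 1 array gave 374 to 789; the count was 374, 439 and 432 without chow replicates 1, 2 and 3 and 454 without high-fat replicate 2. Signs turned with normexp, which shifted all features as given above, in Pola1 (−0.37), Pole2 (−0.33), Rpa2 (−0.20), Cdc45 (−0.51), Ccne1 (−0.094) and Plk1 (−0.065), of which Rpa2, Ccne1 and Plk1 lay above the median of all features; with normexp and quantile normalization in Cdc45 (−0.018), with the mean of probes in Mcm4 (0.60), with array weights in Rpa3 (−0.042), in run 3 alone in Pola1 (−0.24), in run 1 alone in Fen1 (−0.025) and Rpa3 (−0.14), without high-fat replicate 3 in Pola1 (−0.024; 0.39 without replicate 1, the range over left-out arrays) and with the replicate block in Fen1 (−0.026). Of the single genes' other values, 343 kept direction and side of the threshold, 15 newly passed and 2 no longer did, both Ccng1 (random block, adjusted p = 0.187; replicate block, 0.065). The cause was not tested in any of these. The number of arrays and the dimmer signal on chow limit the precision.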

Other observations

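Cell cycle genes varied among the chow arrays, a pattern seen in the values and given as a description with no test. Chow replicate 1 was the highest of the 3 chow arrays in 17 of 22 mitotic genes (77.3%) and 17 of 35 members (48.6%), where it was the highest in 28.7% of all features. The largest excesses among members, over the mean of the other two chow arrays, were 1.61 log2 units in Rrm2, 1.25 in Ccnb1, 0.92 in Ccna2, 0.87 in Cdk1 and 0.83 in Cdc45; Tk1 was at 0.29 and Rrm1 at −0.036. In other replication factors the share was 34.5% (10 of 29). Without chow replicate 1 the members' median difference was 0.20 and Prim2 was at −1.30. Markers of stellate cells and fibroblasts were highest on chow replicate 1 in 4 of 6 (median excess 0.27). Of the 8 hepatocyte markers, 4 were highest on chow replicate 1 (median excess 0.30) and 4 on chow replicate 3, which was the highest in 45.8% of all features. Markers of leukocytes (8 of 9) and of macrophages (7 of 7) were highest on chow replicate 2, as were 25.5% of all features.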
